A study of Mus musculus with 38 samples.

Results

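The sites described here are the genomic regions at which Notch1-IC, the intracellular part of the Notch1 receptor, gave a reproducible ChIP-seq peak only after cells had been cultured with a Notch ligand. They were found by merging the Notch1-IC peaks of 2 ligand-stimulated stages, Phase 1 and Phase 2, and removing every merged site that overlapped a Notch1-IC peak of the unstimulated stage by at least 1 bp. Of 152 Phase 1 and 352 Phase 2 peaks, 145 and 333 lay on autosomes outside satellite and rRNA repeats. The study describes longer sets of reproducible Notch1-IC peaks for both stages, so membership and absence refer to the deposited lists. The 145 and 333 kept peaks merged into 396 sites, of which 100 overlapped an unstimulated peak and 296 did not. These 296 ligand-induced sites were 296 of 1899 Notch1-IC sites over all 3 stages, and 1471 of the rest were found in the unstimulated list alone.

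The study used Cas9-LP, a lymphoid progenitor cell line set up from mouse fetal liver. The donor mice were Ebf1-deficient and carried the Rosa26-Cas9 knock-in, so that every group, controls included, lacked Ebf1, a factor needed for B-cell development, and expressed Cas9. The unstimulated cells (LP) were grown on OP9 stroma, and Phase 1 and Phase 2 cells were grown on OP9-DLL4, stroma that displays the Notch ligand DLL4. Chromatin was fixed with disuccinimidyl glutarate and formaldehyde and precipitated with antibodies to RUNX1, CTCF, Med12 or p300, or with a mixture of 2 antibodies to Notch1-IC. In further Phase 1 cells a retroviral guide against Cbfb (sgCbfb) or Med12 (sgMed12), or a control guide (sgCont), was present before Med12 or RUNX1 was precipitated. The labels do not say which clone or line each library came from or whether replicates were separate cultures. Phase 2 maps of RUNX1, Med12, p300 and CTCF were not analysed here, so each statement on these proteins after stimulation is about Phase 1.

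When Notch1 meets its ligand on a neighbouring cell, proteolysis frees Notch1-IC, which enters the nucleus and joins the DNA-binding protein RBPJ and a Mastermind-like coactivator, and this assembly can bring in the acetyltransferase p300. RUNX1 binds DNA together with its partner CBFB, Med12 belongs to the kinase module of Mediator, the complex that connects enhancers with RNA polymerase II, and CTCF is a zinc-finger protein known for insulator and loop-anchor functions. Notch signalling starts the T-cell programme in lymphoid progenitors, and Hes1, Dtx1, Nrarp, Notch3, Il2ra and a far enhancer of Myc are textbook Notch targets in early T cells.

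The reference sequence around the centres of 11 ligand-induced sites is printed below. Each run is the plus strand of GRCm38 (mm10), 5′ to 3′, around the centre of the site, with exact matches to an RBPJ string (GTGGGAA, or TTCCCAC when read from the other strand) and to a RUNX string (TGTGGTT or TGCGGTT, or their reverse complements, here AACCACA) in capitals. The first set lies in genes of the Notch pathway itself, namely the Hes1 promoter (chr16:30065166-30065339), 2 sites in the introns of Dtx1 (chr5:120685757-120685956 and chr5:120688518-120688717), an intron of Notch3 (chr17:32164309-32164508) and an intron of Notch1 (chr2:26502313-26502512). Every one of these 5 windows holds at least 1 RBPJ string, and the upstream Dtx1 window holds 2. The printed windows were picked by gene as examples, and over all 296 ligand-induced sites 92 windows (31.1%) held the string. The Hes1 run was kept to 174 bases so that no untranslated sequence is shown.
Hes1 promoter: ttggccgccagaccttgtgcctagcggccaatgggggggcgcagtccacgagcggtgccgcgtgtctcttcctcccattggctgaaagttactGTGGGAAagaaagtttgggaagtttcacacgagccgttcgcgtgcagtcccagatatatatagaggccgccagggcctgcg
Dtx1 intron, downstream site: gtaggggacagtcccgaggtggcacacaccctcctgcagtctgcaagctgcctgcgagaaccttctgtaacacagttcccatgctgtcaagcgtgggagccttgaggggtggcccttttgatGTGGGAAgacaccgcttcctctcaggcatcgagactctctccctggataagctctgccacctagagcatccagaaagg
Dtx1 intron, upstream site: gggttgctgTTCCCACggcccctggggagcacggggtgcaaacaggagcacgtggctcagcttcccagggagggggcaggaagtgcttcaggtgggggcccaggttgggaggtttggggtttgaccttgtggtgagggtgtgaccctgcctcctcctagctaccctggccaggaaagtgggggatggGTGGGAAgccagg
Notch3 intron: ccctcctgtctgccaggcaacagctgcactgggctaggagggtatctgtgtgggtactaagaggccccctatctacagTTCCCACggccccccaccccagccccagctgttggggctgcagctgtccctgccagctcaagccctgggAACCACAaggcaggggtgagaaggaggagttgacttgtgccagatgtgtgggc
Notch1 intron: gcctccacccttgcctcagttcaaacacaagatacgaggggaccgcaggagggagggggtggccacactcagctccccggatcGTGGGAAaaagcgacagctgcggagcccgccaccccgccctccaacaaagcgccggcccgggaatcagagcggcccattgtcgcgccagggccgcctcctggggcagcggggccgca

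In a second set RBPJ and RUNX strings stand close together, or only one of them is present near a T-cell gene. The site upstream of Runx3 (chr4:135080011-135080210, intergenic) holds both strings with their first bases 20 bp apart, and the site in an intron of Ahi1 distal to Myb (chr10:21048847-21049046) holds both 24 bp apart. In the Notch3 window shown above they were 69 bp apart. The intergenic site upstream of Cd3e (chr9:45011469-45011668) holds an RBPJ string without a RUNX string, and the intergenic site upstream of Tcf7 (chr11:52314065-52314264) holds a RUNX string without an RBPJ string.
upstream of Runx3: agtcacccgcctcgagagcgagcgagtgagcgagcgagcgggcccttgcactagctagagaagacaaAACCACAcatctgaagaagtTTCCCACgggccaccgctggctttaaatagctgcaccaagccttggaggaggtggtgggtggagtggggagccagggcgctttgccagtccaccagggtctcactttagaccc
Ahi1 intron, distal to Myb: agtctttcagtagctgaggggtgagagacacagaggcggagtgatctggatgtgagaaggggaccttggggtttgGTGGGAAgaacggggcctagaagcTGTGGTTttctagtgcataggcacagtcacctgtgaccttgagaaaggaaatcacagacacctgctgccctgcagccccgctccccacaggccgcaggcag
upstream of Cd3e: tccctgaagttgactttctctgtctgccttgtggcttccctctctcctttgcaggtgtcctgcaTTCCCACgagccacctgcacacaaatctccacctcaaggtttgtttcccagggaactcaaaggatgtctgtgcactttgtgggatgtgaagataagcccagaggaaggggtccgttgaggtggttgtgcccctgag
upstream of Tcf7: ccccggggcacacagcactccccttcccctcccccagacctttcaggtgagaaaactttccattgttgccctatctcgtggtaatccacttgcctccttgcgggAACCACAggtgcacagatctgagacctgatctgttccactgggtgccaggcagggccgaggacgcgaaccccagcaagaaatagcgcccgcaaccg

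The last set has neither string although Notch1-IC scores were high. These are the intergenic site upstream of Il2ra (chr2:11623274-11623473) and a site far distal to Myc (chr15:63255779-63255978, intergenic in the deposited annotation and inside an intron of the noncoding gene Gm41335 in GENCODE), which had the highest Notch1-IC score of all ligand-induced sites. A match to such a string is a description of letters, not a mapped binding event. A window without an exact match can still hold a near one. The Il2ra window holds tgggaa, which is GTGGGAA without its first letter, and the Myc window holds ttccca, the same letters read from the other strand.
upstream of Il2ra: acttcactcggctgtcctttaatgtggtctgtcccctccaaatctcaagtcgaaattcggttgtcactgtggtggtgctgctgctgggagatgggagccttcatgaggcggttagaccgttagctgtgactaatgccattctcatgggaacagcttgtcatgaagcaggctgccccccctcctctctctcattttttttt
far distal to Myc: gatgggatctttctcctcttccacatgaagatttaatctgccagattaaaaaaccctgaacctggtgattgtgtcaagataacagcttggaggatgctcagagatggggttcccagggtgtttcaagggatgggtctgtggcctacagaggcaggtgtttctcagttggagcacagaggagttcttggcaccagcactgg

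The sites were selected on the presence of Notch1-IC peaks in the 3 stages, so Notch1-IC scores are given as a description. The score is the normalized peak score that HOMER assigned, the lists start at 15, and a site absent from a list may have had signal under that limit. Scores of different lists were not put on 1 scale, so they are set side by side and only percentiles within a list are compared. The 94 ligand-induced sites in the Phase 1 list had a median score of 18.55 (15 to 80.1), and the 249 in the Phase 2 list a median of 21 (15 to 166.4), so most lay near the lower limit and 10 and 63 of them reached 30. By list, 47 sites were in Phase 1 alone, 47 in both and 202 in Phase 2 alone. The 3 sites closest to an unstimulated Notch1-IC peak without overlapping it lay 8 bp (near Zfp36l2), 81 bp (near Slc16a5) and 304 bp (upstream of Runx3) from it, and the smallest overlaps among the sites left out were 41 bp (Smim6), 60 bp (Gm11346) and 60 bp (Jakmip1). Only 6 of the 296 lay within 500 bp of an unstimulated peak. The unstimulated Notch1-IC list was the longest of the 3, with 1585 peaks.

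The annotation placed 42 of the 296 sites at promoters, 111 in introns and 130 between genes. Phase 1-only and Phase 2-only sites differed here, since 24 of 47 Phase 1-only sites were promoters (51.1%) against 12 of 202 Phase 2-only sites (5.94%), a difference of -45.1 percentage points (95% Newcombe interval -59.0 to -30.7). Intervals here and below cover the counting of sites only. Each list pools 2 replicates into 1 set of reproducible peaks, so no value per replicate existed and no test between stages or guides was possible. Of the 296 sites, 58 lay in 23 groups whose members were less than 50 kb apart. One group of 11 Phase 2-only sites lay in a tandem array of Rn4.5s, a small noncoding RNA gene (chr6:47655015-47772408), with scores of 37.3 to 77.9 (median 70.4). Copies of such an array are near-identical, so reads cannot be assigned to 1 copy. Only 1 of the 11 had a Phase 1 RUNX1 peak, 0 had a Phase 1 Med12 peak, 1 had a Phase 1 p300 peak and 0 had an RBPJ string, so values are also given without them where they matter.

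The first question was which of the ligand-induced sites carried RUNX1 and its coactivators before the ligand was present. In LP, 150 of 296 sites (50.7%, 95% Wilson interval 45 to 56.3%) had a RUNX1 peak, 137 (46.3%, 40.7 to 52.0%) a Med12 peak and 162 (54.7%, 49.0 to 60.3%) a p300 peak. In Phase 1 the counts were 225 for RUNX1 (76.0%, 70.8 to 80.5%), 236 for Med12 (79.7%, 74.8 to 83.9%) and 247 for p300 (83.4%, 78.8 to 87.2%). Ligand-induced sites therefore carried all 3 proteins more often in the Phase 1 lists than in the LP lists. The Phase 1 lists as a whole were also longer than the LP lists, with 38399 against 31995 RUNX1 peaks, 39132 against 30020 Med12 peaks and 49116 against 36182 p300 peaks. The part of list length in the Med12 and p300 differences was not tested.

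Sites of Notch1-IC that were already present in LP looked different before stimulation. Of the 100 Phase 1 and Phase 2 sites that overlapped an LP Notch1-IC peak, 89 had LP RUNX1, 87 had LP Med12 and 90 had LP p300. The shares of ligand-induced sites minus those of the 100 were -38.3 percentage points for LP RUNX1 (95% Newcombe interval -45.7 to -28.8), -40.7 for LP Med12 (-48.4 to -30.9) and -35.3 for LP p300 (-42.5 to -26.0). All 3 intervals lay below 0. In Phase 1 the differences were smaller, -15.0 for RUNX1 (-21.6 to -6.47), -10.3 for Med12 (-16.9 to -1.74) and -5.55 for p300 (-12.2 to 2.97), where only the p300 interval included 0. Without the Rn4.5s sites the Med12 difference was -7.19 (-13.8 to 1.22), and that interval included 0 too. The same contrast held outside promoters, where LP RUNX1 differed by -37.9 points (-45.9 to -27.6).

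**Figure D1:**
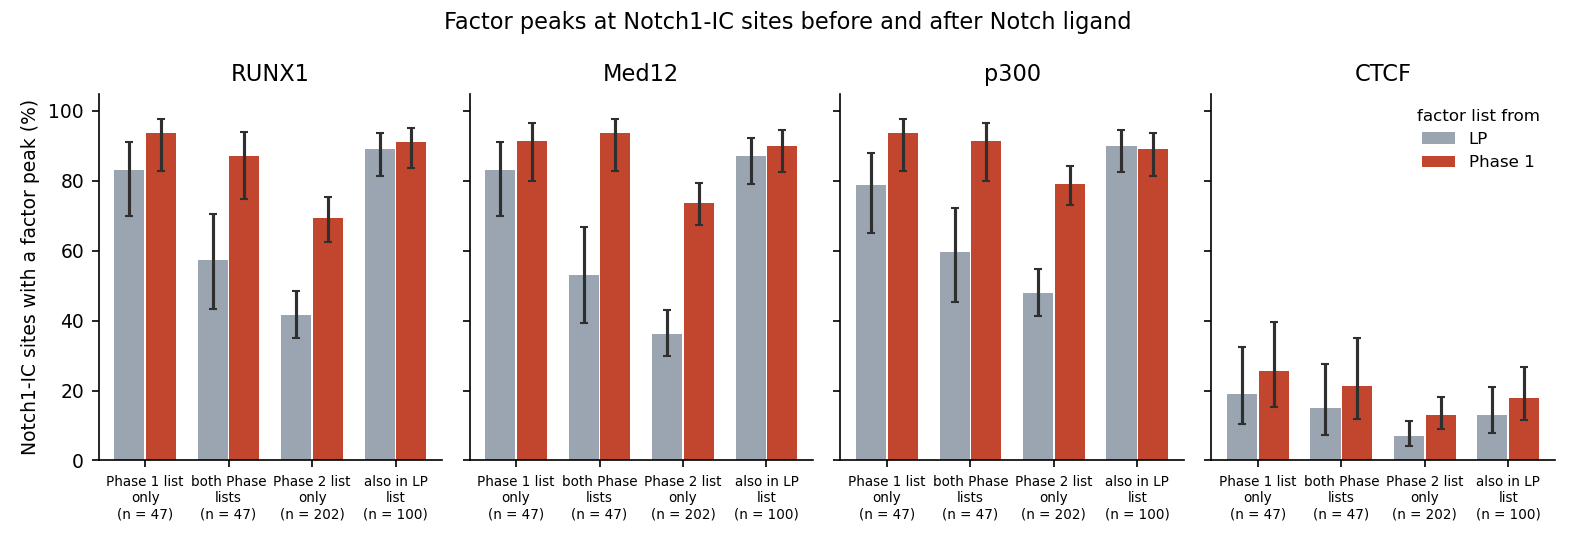
Percentage of Notch1-IC sites (vertical axis) with a RUNX1, Med12, p300 or CTCF peak in the LP list (grey) or the Phase 1 list (red), for ligand-induced sites found in the Phase 1 list only, in both lists or in the Phase 2 list only, and for the 100 sites also found in LP. Error bars are 95% Wilson intervals over sites; the LP RUNX1 bar is 83.0% at Phase 1-only sites and 41.6% at Phase 2-only sites, while all bars of CTCF stay below 30%.

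Within the ligand-induced sites, occupancy before stimulation differed by the list in which Notch1-IC was found. LP RUNX1 was present at 83.0% of Phase 1-only sites, 57.4% of sites in both lists and 41.6% of Phase 2-only sites, and LP Med12 at 83.0%, 53.2% and 36.1%. The difference between Phase 2-only and Phase 1-only sites was -41.4 points for LP RUNX1 (-51.9 to -26.6) and -46.8 for LP Med12 (-57.1 to -32.1). Among non-promoter sites alone the LP RUNX1 difference was -38.9 points (-51.4 to -17.9). Phase 2-only sites also had Phase 1 RUNX1 less often, 69.3% against 93.6% (-24.3, -32.2 to -12.0). Phase 1 RUNX1 was thus listed at most of the sites at which the Notch1-IC peak appeared only in the Phase 2 list.

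Site by site, 148 of 296 ligand-induced sites had RUNX1 in both stages, 77 had it in Phase 1 but not in LP, 2 in LP but not in Phase 1 and 69 in neither. Among the 227 with RUNX1 in at least 1 stage, 33.9% (28.1 to 40.3%) had it in Phase 1 alone, against 27% of all merged autosomal RUNX1 sites. With equal numbers of top-scored RUNX1 peaks taken from both lists, 72 of the 296 sites (24.3%) in place of 77 (26.0%) had RUNX1 in Phase 1 alone. The corresponding counts for Med12 were 102 sites in Phase 1 alone of 239 (42.7%, 36.6 to 49.0%) against a background of 33.4%, and for p300 87 of 249 (34.9%, 29.3 to 41.0%) against 36.2%. The p300 share was thus near its background, and the RUNX1 and Med12 shares were above theirs. Peaks found in LP alone were rare at the ligand-induced sites, 2 of 227 for RUNX1 (0.881%, background 12.3%), 3 of 239 for Med12 (1.26%, background 13.1%) and 2 of 249 for p300 (0.803%, background 13.3%). All 3 upper bounds of these shares, at most 3.62%, lay below the background. The other Notch1-IC sites shared this, with RUNX1 in LP alone at 0 of 91 sites also in LP and 25 of 1340 LP-only sites (1.87%). They differed in RUNX1 found in Phase 1 alone, which 2 of those 91 and 18 of those 1340 had.

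RUNX1, Med12 and p300 were mostly found together. All 3 were present in Phase 1 at 220 of the 296 sites (74.3%), and 129 had all 3 in both stages. At 59 sites (19.9%, 15.8 to 24.9%) none of the 3 was listed in LP and all 3 were listed in Phase 1. At the 77 sites with RUNX1 in Phase 1 but not in LP, Med12 was present at 74 in Phase 1 and 2 in LP, and p300 at 75 in Phase 1 and 15 in LP. The sites that gained a RUNX1 peak were therefore nearly all sites that gained a Med12 peak, whereas a p300 peak was already there at 15 of them. Of these 77, 5 were promoters, and 57 were Phase 2-only sites, 15 were in both Notch1-IC lists and 5 were Phase 1-only. A further 44 sites had none of the 3 proteins in either stage, and of the 69 without RUNX1 in either stage 61 were Phase 2-only and 10 were in the Rn4.5s array, with Phase 1 Med12 at 15 and Phase 1 p300 at 23.

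CTCF was a minor presence. LP CTCF peaks overlapped 30 ligand-induced sites (10.1%, 7.19 to 14.1%) and Phase 1 CTCF peaks 48 (16.2%, 12.5 to 20.8%), and 244 had CTCF in neither. The differences from the 100 sites also in LP were -2.86 points for LP CTCF (-11.4 to 3.71) and -1.78 for Phase 1 CTCF (-11.2 to 6.03), and neither was detectable with these numbers of sites. LP CTCF was less frequent than at LP-only sites (-8.08, -11.7 to -3.69). Within the ligand-induced sites, Phase 2-only minus Phase 1-only sites gave -12.2 points for LP CTCF (-25.9 to -2.46) and -12.7 for Phase 1 CTCF (-27.2 to -1.09). Of the 52 sites with CTCF in at least 1 stage, 22 (42.3%, 29.9 to 55.8%) had it in Phase 1 alone, against 7.7% of all merged CTCF sites, and 4 had it in LP alone against a background of 8.84%. These CTCF peaks were weak for their lists, with a median percentile of 35.05 in LP and 37.2 in Phase 1 (100 being the highest score), while the median percentile of Phase 1 Med12 peaks at ligand-induced sites was 91.85 and that of p300 peaks 92.1. The CTCF consensus, searched by name, matched 1 of the 296 windows.

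Where RUNX1 was present in both stages, its rank among all RUNX1 peaks was compared. At these 148 sites the median percentile of the RUNX1 score was 78.8 in the LP list and 90.6 in the Phase 1 list, 127 sites ranked higher in Phase 1 and 21 lower, and the median shift was 11.95 percentile points. For comparison, 61.7% of all 26062 LP RUNX1 peaks found again in Phase 1 ranked higher there, with a median shift of 2.54, and at sites also in LP 63 of 89 ranked higher, with a median shift of 1.2 from a starting median of 94.4. The shift was found at 25 of 26 sites in both Notch1-IC lists (median 17.3 points) and at 77 of 83 Phase 2-only sites (14.2 points), and at 25 of 39 Phase 1-only sites (2.1 points). The median LP percentile was 83.9 at Phase 1-only sites, 79.85 at sites in both lists and 73.7 at Phase 2-only sites, and a percentile cannot pass 100.

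**Figure D2:**
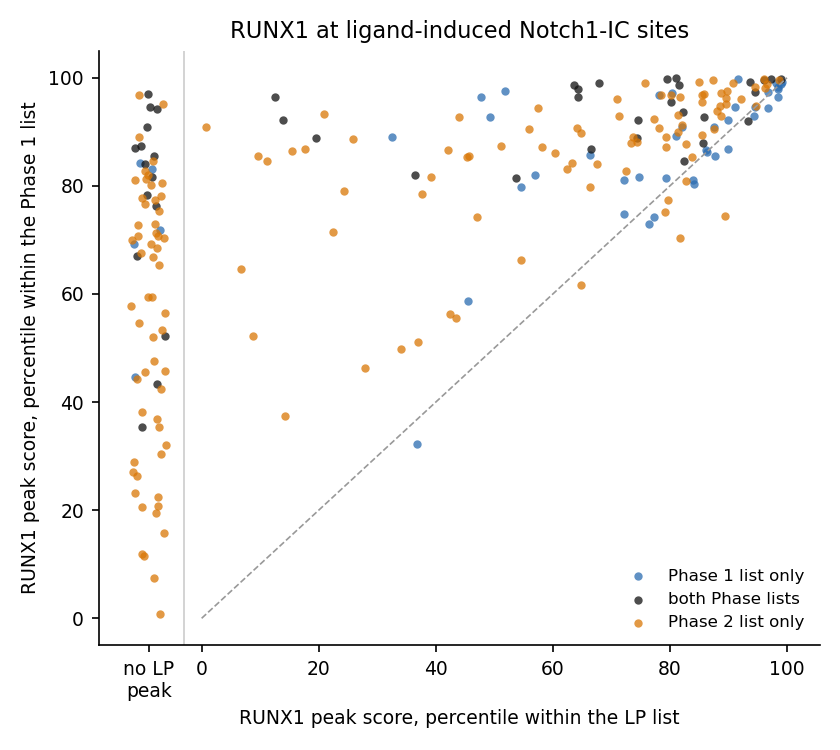
RUNX1 peak score at ligand-induced Notch1-IC sites, as the percentile within the LP RUNX1 list (horizontal axis) and within the Phase 1 RUNX1 list (vertical axis), one point per site, coloured by the Notch1-IC list it came from. The strip at the left holds the 77 sites with a Phase 1 RUNX1 peak and no LP RUNX1 peak. Sites without a Phase 1 RUNX1 peak are not drawn. Points above the dashed line of equality, 127 of 148, ranked higher in Phase 1.

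Loss of CBFB, the partner that RUNX1 needs for stable DNA binding, was examined through Med12 in Phase 1 cells. With the control guide 194 ligand-induced sites had a Med12 peak, of which 73 (37.6%, 31.1 to 44.6%) were found again with sgCbfb and 121 were not, while 1 site had a peak with sgCbfb only. Of all sgCont Med12 peaks 32.5% were missing with sgCbfb, and of all sgCbfb peaks 28.8% were missing with sgCont. The loss differed by position, because 24 of 27 promoter sites kept Med12 (7.69% of all promoter peaks were missing) but only 49 of 167 non-promoter sites did (29.3%, 23.0 to 36.6%). Of all non-promoter sgCont Med12 peaks 50.4% were missing and 49.6% were kept, and the difference between the ligand-induced sites and all of them, which include the sites themselves, was -20.3 points (-26.7 to -12.9). The study states that knockout ChIP was done with few cells and was noisier, and the 2 lists held 19053 and 18099 peaks.

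Non-promoter Notch1-IC sites that were already present in LP kept Med12 at 50 of 76 (65.8%), so the ligand-induced sites differed from them by -36.4 points (-48.0 to -23.1). Among ligand-induced non-promoter sites, 17 of 22 Phase 1-only sites (77.3%), 13 of 35 sites in both lists (37.1%) and 19 of 110 Phase 2-only sites (17.3%) kept Med12. The Phase 2-only share minus the Phase 1-only share was -60.0 points (-73.9 to -37.7). Med12 at the Phase 2-only sites was thus listed least often after sgCbfb, and Phase 1-only sites kept it more often than non-promoter peaks in general (27.6 points, 6.91 to 40.3). The sgCont Med12 peaks were weaker at non-promoter Phase 2-only sites, with a median percentile of 61.45. It was 71.9 at Phase 1-only sites and 74.9 at sites in both lists, and the part of this in the differences was not tested.

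Sites were also split by RUNX1. Of the non-promoter ligand-induced sites with RUNX1 in Phase 1 but not in LP, 3 of 47 (6.38%) kept Med12, against 46 of 117 (39.3%) with RUNX1 in both stages, a difference of -32.9 points (-42.9 to -19.3). The sgCont Med12 peaks were weaker at the first kind, with median percentiles of 42.2 (kept) and 41.7 (missing) against 78.3 and 68.5 with RUNX1 in both stages, and the part of this in the difference was not tested. Low values were shared with other RUNX1 peaks, since 83% of all non-promoter sgCont Med12 peaks with such RUNX1 were missing, and the difference from them, -10.6 points (-15.4 to 0.434), had an interval that included 0. At sites with RUNX1 in both stages the background of missing peaks was 47.6%, and the ligand-induced sites kept Med12 less often (-13.1, -21.5 to -3.95). A split by LP Med12 gave 4 of 61 sites kept without it (6.56%), where 78.6% of all such peaks were missing and 21.4% kept, a difference of -14.9 points (-19.4 to -5.54). With LP Med12, 45 of 106 sites were kept (42.5%), where 45.4% of all such peaks were missing and 54.6% kept, a difference of -12.1 points (-21.2 to -2.58).

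Because peaks with low sgCont scores were kept less often throughout, non-promoter sites were set beside all non-promoter sgCont Med12 peaks of the same score bin, with 5 bins of equal size over all sgCont peaks. From the lowest to the highest bin, ligand-induced sites kept Med12 at 0 of 14, 4 of 19 (21.1%), 5 of 37 (13.5%), 19 of 54 (35.2%) and 21 of 43 sites (48.8%). All peaks of those bins were kept at 34.8%, 45.1%, 52.9%, 67% and 81.3%. The 5 differences were all below 0 with intervals that excluded 0, with the upper limit nearest to 0 in bin 2 (-24.0 points, -36.7 to -1.69). Non-promoter sites with an RBPJ string kept Med12 at 37.7% and those without at 25.4%, a difference of 12.3 points whose interval (-2.37 to 27.5) included 0.

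**Figure D3:**
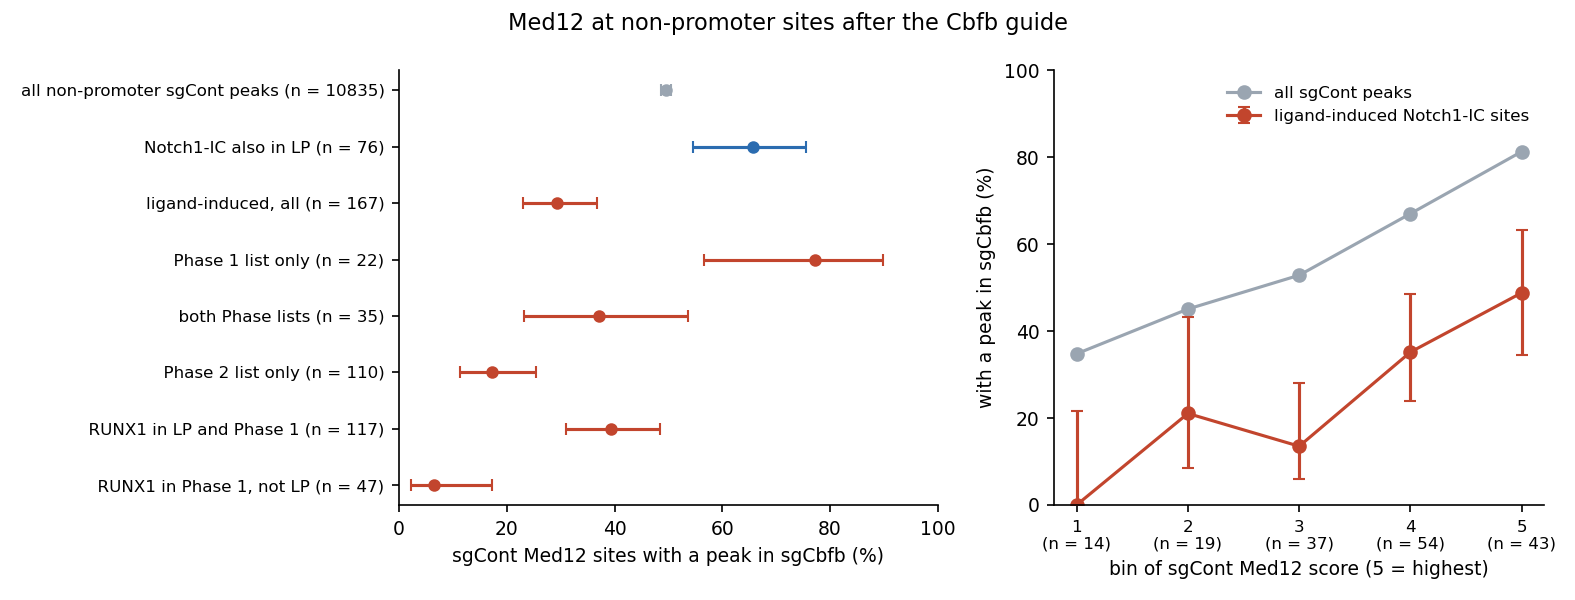
Left, percentage of non-promoter sites with an sgCont Med12 peak that also had an sgCbfb Med12 peak, with 95% Wilson intervals, for all sgCont peaks, Notch1-IC sites also in LP, and ligand-induced sites as a whole, by Notch1-IC list and by RUNX1. Right, the same percentage by bin of the sgCont Med12 score for all peaks (grey) and ligand-induced sites (red); red lies below grey in all 5 bins, from 0 against 34.8% to 48.8 against 81.3%.

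The reverse guide experiment, RUNX1 after sgMed12, reached fewer sites because its lists held 1550 (sgCont) and 2094 (sgMed12) peaks. A RUNX1 peak was listed with sgCont at 81 ligand-induced sites, and 57 of these (70.4%, 59.7 to 79.2%) also had one with sgMed12, while 11 sites had one with sgMed12 only. Of all sgCont RUNX1 peaks 28.7% were missing and 71.3% kept, so ligand-induced sites were near the background. Sites also in LP kept RUNX1 at 53 of 64.

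Sequence set the ligand-induced sites apart from the LP-only ones. The RBPJ string GTGGGAA, on either strand within 200 bp around the centre, was found at 92 of 296 ligand-induced sites (31.1%, 26.1 to 36.6%), and in 5.07% of same-length windows 2 kb to either side. It was found at 21% of the 100 sites also in LP and at 3.87% of the 1471 LP-only sites. In the windows 2 kb to either side of these it was at 1.5% and 4.38%. LP-only sites thus held the string about as often as their neighbouring windows. Ligand-induced sites exceeded LP-only sites by 27.2 points (22.1 to 32.8), and exceeded the sites also in LP by 10.1 points with an interval (-0.198 to 18.8) that included 0, or 11.3 (0.923 to 20.1) without the Rn4.5s sites. Windows of all Phase 1 RUNX1 and p300 peaks held the string in 5.32% and 5.40% of cases. The string contains TGGGAA, a core also recognised by Ikaros-family proteins, and that shorter form was found at 168 of the 296 sites (56.8%), 19.1% of neighbouring windows and 16.3% of windows of all Phase 1 RUNX1 peaks.

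RBPJ strings were most frequent where Notch1-IC had appeared by Phase 1, at 44.7% of Phase 1-only sites and 46.8% of sites in both lists against 24.3% of Phase 2-only sites. The Phase 2-only share minus the Phase 1-only share was -20.4 points (-35.5 to -5.71). The strings sat at the middle of the sites, since the nearest one lay within 25 bp of the centre at 52 of the 92 sites and within 50 bp at 78, with a median distance of 21 bp. Facing pairs of RBPJ strings 12 to 22 bp apart were searched, since Notch complexes are known to dimerise on paired sites. Exact pairs were found at 0 of 296 sites, a count that allows up to 1.28% (Wilson), and at 1 of 37671 Phase 1 RUNX1 windows. Both strings had to match exactly, so the count cannot show that paired sites are absent. In the printed Hes1 window GTGGGAA is followed by ttcacac, which differs from TTCCCAC by 1 letter and was not counted.

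The RUNX string was found at 25% of ligand-induced sites, close to the 25.4% of all Phase 1 RUNX1 windows and above the 5.07% of neighbouring windows. It was less frequent than at sites also in LP (39.0%, difference -14.0 points, -24.8 to -3.60) and at LP-only sites (32.8%, -7.83, -13.0 to -2.10). Both strings occurred together at 23 ligand-induced sites, 17 to 133 bp apart with a median of 51 bp, and they overlapped at 0 of these. The PU.1 string GAGGAAGT, of a factor of progenitor and myeloid cells, was at 3.04% of ligand-induced sites against 9.45% of LP-only sites and 8.65% of all Phase 1 RUNX1 windows. AP-1 (TGACTCA or TGAGTCA) was at 3.72%, TCF1 (CCTTTGA) at 4.05%, equal to its neighbouring windows, and the string AGATAA of GATA factors at 13.2% against 10.3% next to the sites. Without the Rn4.5s sites the TCF1 string was at 4.21% (2.42 to 7.21%) against 2.81% of neighbouring windows.

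**Figure D4:**
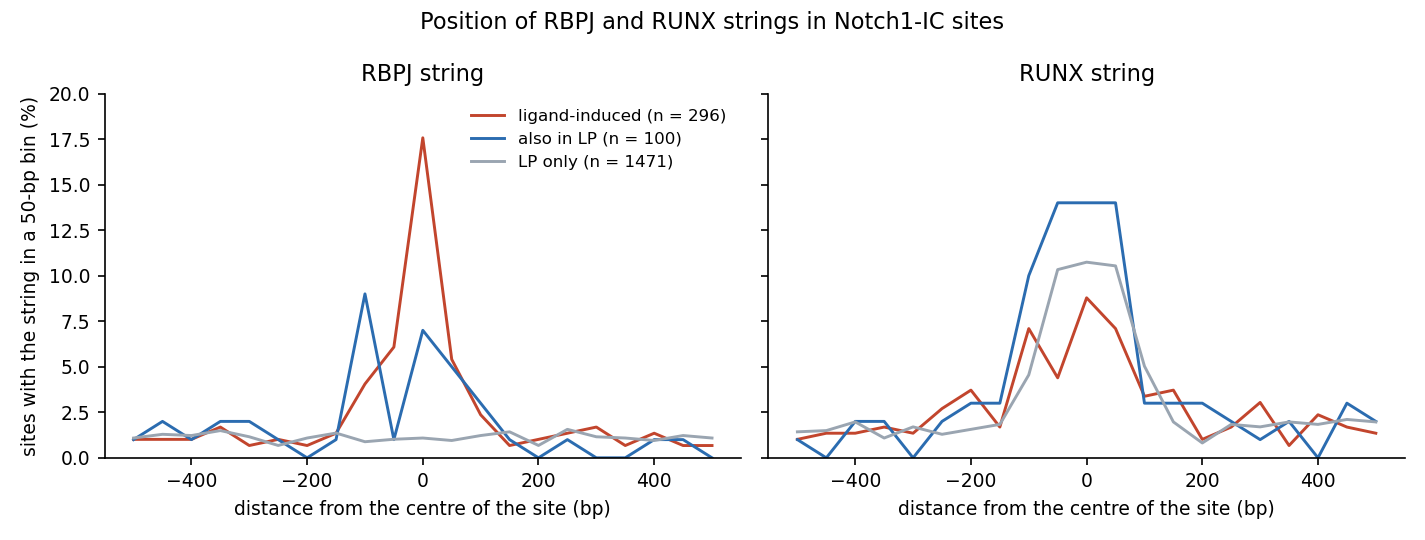
Percentage of Notch1-IC sites (vertical axis) with an RBPJ string (left) or a RUNX string (right) in each 50-bp bin by distance from the centre of the site (horizontal axis, bp), for ligand-induced sites, sites also in LP and LP-only sites. The central bin holds an RBPJ string at 17.57% of ligand-induced sites, 7.0% of sites also in LP and 1.09% of LP-only sites.

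Genes near the ligand-induced sites were counted over gene lists that had been chosen with earlier results of these data known, so the counts are a description. A ligand-induced site lay within 100 kb of 7 of 16 Notch pathway genes and targets, 6 of 20 T-lineage transcription factors and 10 of 26 T-cell surface and signalling genes, against 1037 of 20780 autosomal coding genes (4.99%). Neighbouring genes can share a site, so genes are not separate loci. Cd3d, Cd3e and Cd3g were counted through the same 2 sites, and Rag1 and Rag2 through the same 1. It lay near 0 of 20 progenitor and myeloid genes and 0 of 12 B-lineage genes. LP-only Notch1-IC sites lay near 13 of 20 progenitor and myeloid genes, 5 of 16 Notch genes, 9 of 20 T-lineage factors, 9 of 26 T-cell surface and signalling genes and 3 of 12 B-lineage genes, against 18.8% of all genes.

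Distances of sites from gene starts are those of the deposited annotation where it gives that gene as the nearest, and are from the start of the GENCODE gene otherwise. The 2 can differ by alternative starts, by over 10 kb, for example at Gata3, Notch1, Lck and Zap70 (56.9 and 74.1 kb), and the deposited value is printed there. Among genes of the Notch pathway, Hes1, a transcriptional repressor, had 2 sites. The promoter site (chr16:30065141-30065392) scored 61.4 in Phase 1 and 47.2 in Phase 2 for Notch1-IC, had no RUNX1, Med12 or p300 in LP, and had all 3 in Phase 1 at scores of 136.8, 178.2 and 170.2. Its Med12 peak scored 68.8 with sgCont (percentile 81.3) and 71.9 with sgCbfb (percentile 80.3). From its signal tracks the study reports weaker Med12 after disruption of Cbfb at the Notch1-IC site of Hes1. It reports the same near Notch3, Tcf7 and Gata3, whose sites are described below. The listed scores and percentiles of the Hes1 promoter peak do not show such a drop. Scores of different lists share no scale, so the change in signal was not tested. The second Hes1 site, at -1.24 kb from the annotated start (negative distances are upstream), had all 3 proteins in both stages and kept Med12 as well. Dtx1, an E3 ligase that acts in Notch signalling, had 2 intronic sites with Notch1-IC scores of 56.1 and 44.1 (chr5:120685737-120685977) and 19.6 and 41.9 (chr5:120688485-120688752) in Phase 1 and Phase 2. Both had RUNX1, Med12 and p300 in Phase 1 and not in LP, and neither sgCont Med12 peak (53.1 and 28.7) was found with sgCbfb. The Hes1 promoter and both Dtx1 introns thus had RUNX1 listed in Phase 1 alone, and the Med12 peak was found with sgCbfb at the promoter and not in the introns. Over all ligand-induced sites, Med12 was likewise kept more often at promoters, as given above.

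The receptor gene Notch3 had an intronic site (chr17:32164289-32164529) at which Notch1-IC scored 28.4 in Phase 1 and 81.5 in Phase 2. RUNX1 was there before stimulation at a score of 89.9 (percentile 74.6) and was at 176.0 (percentile 92.1) in Phase 1, and the Med12 peak was 64.3 with sgCont and 29.0 with sgCbfb. At Notch1 an intronic site (chr2:26502291-26502536) with scores of 20.5 and 26.2 had RUNX1, Med12 and p300 in Phase 1 and not in LP, and its sgCont Med12 peak of 51.9 was not found with sgCbfb. Nrarp, a feedback inhibitor of Notch, had a Phase 1-only site at -7.94 kb (17.1), with the 3 proteins in Phase 1 alone and Med12 kept at 24.3 against 45.1. Rbpj itself had a Phase 1-only site (22.6) with all 3 proteins in both stages and Med12 kept at 66.4 against 87.8. The receptor gene of insulin-like growth factor, Igf1r, had a Phase 2-only site (34.6) past its far end. That site, 319.1 kb from the gene start, held an RBPJ string and had the 3 proteins in Phase 1 alone.

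In all, 5 sites lay in the gene-poor region distal to Myc, a growth-promoting transcription factor. They were named because 3 or more sites shared a nearest gene, and their distance to Myc was added after their values had been seen. The site 1270.5 kb from Myc (chr15:63255757-63256002) scored 25.7 for Notch1-IC in Phase 1 and 166.4 in Phase 2, and had RUNX1, Med12 and p300 in Phase 1 (69.0, 191.7 and 232.8) and none in LP. Its Med12 peak of 42.6 with sgCont was not found with sgCbfb. The neighbour at 1285.2 kb showed the same pattern at a Phase 2 score of 16.7, the one at 1294.4 kb (32.2) had none of the 3 proteins, and those at 1478.6 and 1481.7 kb (15.8 and 15.6) had Phase 1 p300 only. The nearest start in the deposited annotation was that of the noncoding Gm20740 in each case.

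Sites near T-lineage transcription factors came next. Tcf7, which encodes TCF1, had a Phase 2-only site at -31.15 kb (chr11:52314079-52314251, score 26.4) with a RUNX1 peak of 252.5 in Phase 1 and none in LP. No listed Med12 or p300 peak of either stage overlapped this site. From its signal tracks the study reports Med12 and p300 with Notch1-IC and RUNX1 at the Tcf7 enhancer at this distance after stimulation. The missing overlap therefore does not show that the 2 proteins are absent there. Gata3 had 2 Phase 2-only sites, 76.8 kb (15.2) and 284.4 kb (17.4) from its start, both with RUNX1, Med12 and p300 in both stages. RUNX1 there was 200.1 and 92.9 in LP and 312.6 and 368.2 in Phase 1, and Med12 was kept with sgCbfb at the nearer site (26.8 against 64.6) and not found at the farther one (92.1 with sgCont). The site at -40.5 kb from Runx3, with both strings, scored 15.5 and 17.1 and had none of the 3 proteins. Myb, a regulator of progenitors and early T cells, had 3 Phase 2-only sites 60.2, 106.1 and 112.0 kb from its start, in or next to Ahi1. RUNX1 was at 114.8, 133.2 and 78.4 in Phase 1 and in LP only at the middle one (21.4), where alone Med12 was kept.

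Bcl11b, a factor of T-lineage commitment, has a known far enhancer region, and 5 sites lay 843.3 to 1201.2 kb from its start (that distance, too, was added after values were seen). The site at 854.9 kb had RUNX1 at 307.3 in LP and 412.8 in Phase 1 with Med12 at 180.5 and 328.6. Those at 843.3 and 884.3 kb had RUNX1 in both stages too, at 127.0 and 26.0 in LP and 222.9 and 101.1 in Phase 1. Med12 was listed with sgCont at these 3 sites, 90.1, 97.4 and 27.3 in order of distance, and with sgCbfb at 0 of the 3. The only one of the 5 in both Notch1-IC lists, at 852.3 kb (16.5 and 33.8), had none of the 3 proteins. Of 2 sites upstream of Lef1, a relative of TCF1, the one at -133.9 kb (39.8) held 2 RBPJ strings without any of the 3 proteins and the one at -162.8 kb (21.6) had RUNX1 and p300 in both stages. Ets1, with a site in its intron (21.2), and Id3, with one at -54.3 kb (16.3), had all 3 in both stages.

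Genes of the T-cell surface and of receptor signalling included Il2ra, which encodes CD25, the marker by which the step out of the earliest stage is followed. Its site at -19.4 kb (chr2:11623254-11623494) scored 24.4 in Phase 1 and 86.1 in Phase 2, with RUNX1 at 206.9, Med12 at 291.1 and p300 at 564.7 in Phase 1 and none in LP. The Med12 peak of 57.4 with sgCont was not found with sgCbfb. Zap70, a kinase of the T-cell receptor, had a site 56.9 kb from its start inside Tmem131 (25 and 48.3) at which RUNX1 was 74.6 in LP and 358.6 in Phase 1, Med12 59.1 and 396.0, and p300 254.0 and 1144.7, and its sgCont Med12 peak of 65.7 was not found with sgCbfb. Cd3e, a chain of the receptor complex, had an intronic site (27.5) and one at -1.98 kb (39.4) with RUNX1 at 30.9 and 25.9 in Phase 1 alone and no sgCont Med12 peak, and both were within 100 kb of Cd3d and Cd3g as well.

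Ptcra, which encodes the pre-T-cell receptor alpha chain, had a promoter site (16.7) with none of the 3 proteins and one at -4.33 kb (27.9) at which RUNX1 ranked lower in Phase 1 than in LP (percentiles 74.4 and 89.4). Lck, the proximal kinase, had a promoter site (16.2), and Il7r, the receptor of interleukin 7, one 57.8 kb away (22.3), each with all 3 proteins in both stages and with an sgCont Med12 peak not found with sgCbfb. Rag2, of the recombinase, had one at -73.2 kb (43.2) with Phase 1 Med12 and p300 but no RUNX1. All of these apart from the Il2ra and Zap70 sites were Phase 2-only.

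The highest Notch1-IC scores outside these lists lay at genes that are not textbook Notch targets. In Phase 1 the highest was in an intron of Nck2, an adaptor protein (80.1, and 54.2 in Phase 2), followed by the Hes1 promoter and the promoter of Cnot10, a subunit of the CCR4-NOT deadenylase (58.2 and 15.7). Nck2 had 3 sites, at 54.7, 96.8 and 116.7 kb from its start, and the RUNX1 percentile there was 19.5, 13.9 and 0.7 in LP and 88.9, 92.2 and 90.9 in Phase 1. The site by the olfactory receptor gene Olfr646 (54.2 and 46.0) had RUNX1 at percentile 12.5 in LP and 96.4 in Phase 1. These 4 sites thus ranked low among the RUNX1 peaks of LP and high among those of Phase 1. Of the high-scoring promoters, Cnot10 had RUNX1, Med12 and p300 in both stages. There RUNX1 was 184.7 and 174.8 and Med12 148.6 with sgCont and 155.1 with sgCbfb. At the promoter of Tpmt, a thiopurine methyltransferase, Notch1-IC was in Phase 1 only (35.3), RUNX1 was 325.6 and 341.5 and Med12 251.3 and 231.1. Promoters varied, since 23 of 42 had all 3 proteins in both stages, 5 had none in LP and all 3 in Phase 1, and 11 had none in either.

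In Phase 2, after the site far from Myc, the highest scores were 112.0 upstream of Afdn, which encodes afadin of cell junctions, and 105.3 upstream of Agfg1, where Notch1-IC had scored 24.0 and 15.4 in Phase 1. The Afdn site held 2 RUNX strings and had RUNX1 (120.1), Med12 and p300 in Phase 1 alone, whereas the Agfg1 site held an RBPJ string and had Med12 and p300 without RUNX1. Sites near Gm266 (95.1), Dennd2d (95.1) and Snx10 (91.1) had all 3 proteins in Phase 1, and the site near Tmem125 (87.6) had none. At several more of the high-scoring sites RUNX1 was present before stimulation and ranked near the top afterwards. The RUNX1 percentile in LP and Phase 1 was 81.1 and 99.9 near the noncoding gene 8430430B14Rik (Notch1-IC 33.0 and 26.7), 64.3 and 98.0 near Rapgef2, a guanine nucleotide exchange factor (29.7 and 49.9), and 96.1 and 99.5 near Armc12 (39.5 and 59.5). The site near Gm11837 (36.5 and 38.6), which held both strings, had RUNX1, Med12 and p300 in Phase 1 alone. At the promoter of Zbtb11, a zinc-finger protein (31.3 and 20.6), all 3 were in both stages and Med12 was 105.4 with sgCont and 104.1 with sgCbfb. The site in an intron of Arhgef10l was in Phase 2 only (89.4), with p300 in both stages and RUNX1 and Med12 in Phase 1 alone. Of the 57 named sites outside the Rn4.5s array, 20 had RUNX1 in Phase 1 but not in LP, 27 in both and 10 in neither, and 41 had an sgCont Med12 peak, of which 15 were kept with sgCbfb.

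**Figure D5:**
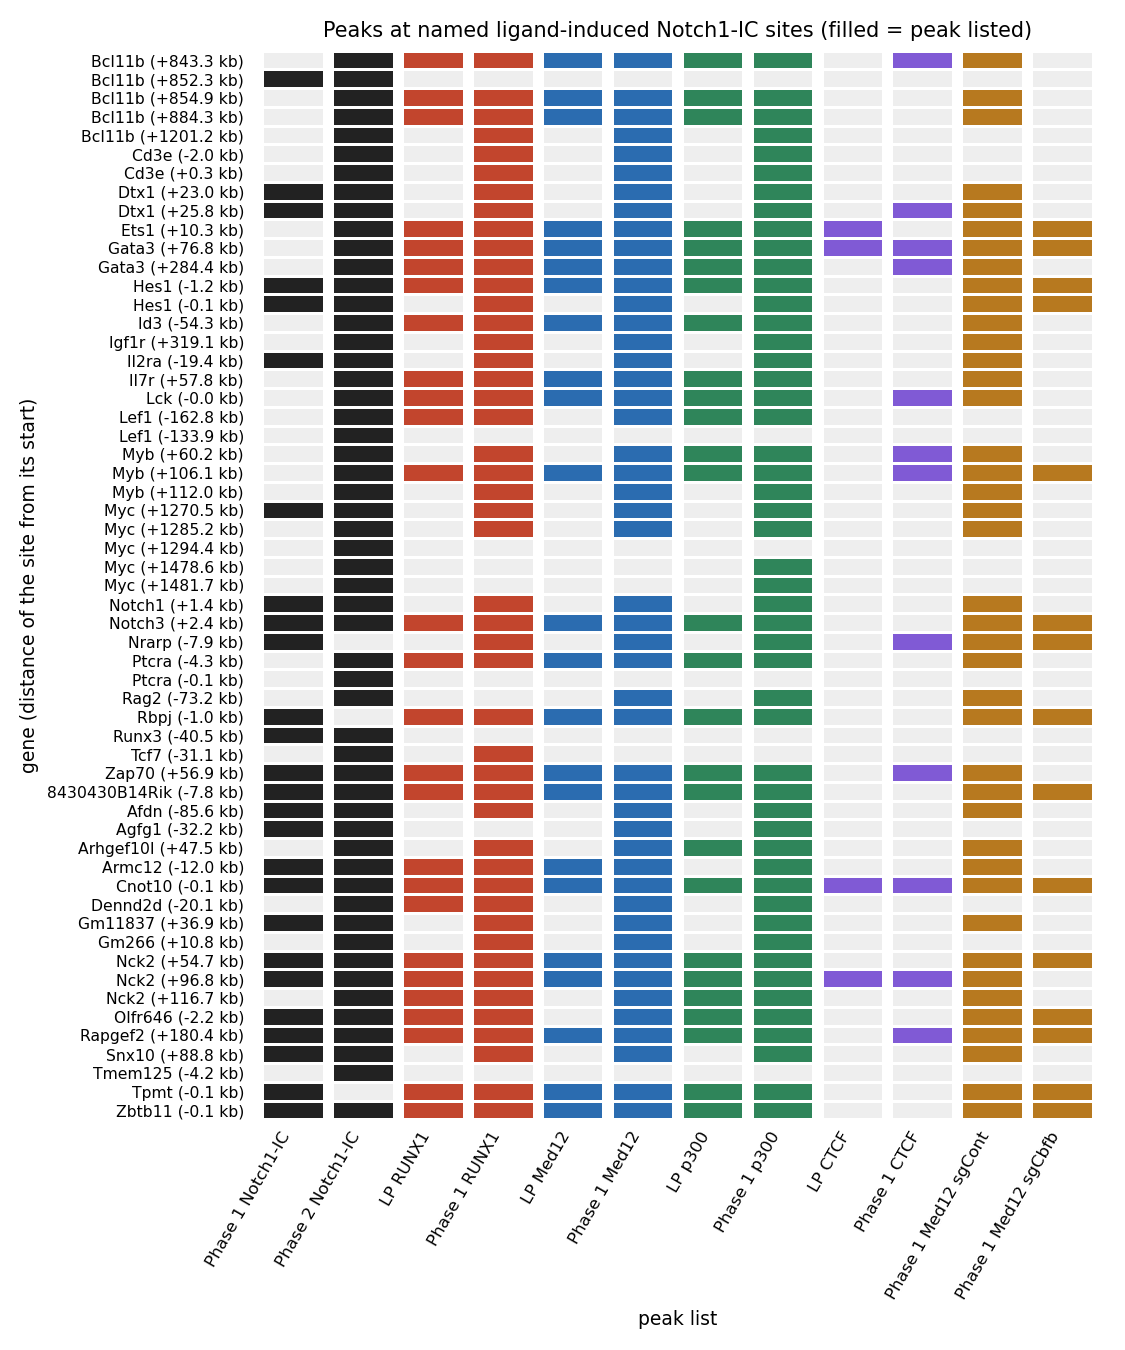
Presence (filled) or absence (light grey) of a peak in 12 lists (columns) at the 57 named ligand-induced sites (rows, labelled with a gene and the distance of the site from its start in kb). Sites such as Dtx1, Notch1, Il2ra and Myc (+1270.5 kb) are empty in the LP columns of RUNX1, Med12 and p300 and filled in the Phase 1 columns, and 15 of the 41 sites with a Med12 peak in the sgCont column have one in the sgCbfb column.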

How the data were processed

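Reproducible ChIP-seq peak lists of Cas9-LP cells were used, 1 list per antibody, stage and guide (17 lists, each from 2 replicates). The authors mapped reads to mm10 with Bowtie 1.1.1 (bcl2fastq 1.8.4 is also named in the submitters' processing notes), called peaks against a matched control with HOMER, kept peaks reproducible by IDR with a normalized peak score of at least 15, and deposited that score with HOMER's nearest gene and distance. Scores from different lists were not put on 1 scale here, so ranks within a list were compared. The lists give no read counts, and depth is unknown.

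Sites were intersected with Python 3.11.15, pandas 2.3.3, numpy 2.4.6 and pysam 0.24.0 (overlap of at least 1 bp). Sequence was read from GRCm38 (RefSeq), 200 bp around each centre, and genes from GENCODE. No peak lay past a chromosome end (0 of 359759). Shares carry 95% Wilson intervals and differences 95% Newcombe intervals, counting error only, and the steps were checked on simulated data.

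Members and gene lists were chosen with earlier results of these data known. Named loci were the 12 highest Notch1-IC scores in Phase 1 and in Phase 2, all members within 100 kb of a listed gene (300 kb for Hes1, Gata3 and Myc) or annotated to one, and genes nearest to 3 or more members. Settings tried were score minima, distances, site filters, string windows and list sizes, and leaving out the Rn4.5s sites, which was chosen after seeing the data. RUNX1 lists of LP cells with sgCTCF or sgCont reached few sites and are not reported.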

Additional observations from a re-analysis of the deposited data

How the results depend on the processing

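No paired analysis was possible because each list pools its replicates, and no replicate could be left out for the same reason. Each number below is a share of sites with a peak, in the order LP then Phase 1, unless stated. Of 132 values under 17 alternatives, 79 stayed within the 95% interval of the reported share (or, for the number of sites, within a factor of 1.5) and 53 did not. With a Notch1-IC score of at least 20, 154 sites remained in number, with RUNX1 at 40.9 and 68.8%, Med12 at 36.4 and 72.7% and p300 at 46.8 and 76.6%. With a score of at least 30 there were 68 sites, RUNX1 at 29.4 and 60.3%, Med12 at 27.9 and 64.7%, p300 at 33.8 and 73.5%, CTCF at 5.88 and 11.8% and the RBPJ string at 41.2%. All 11 Rn4.5s sites, which scored 37.3 to 77.9, passed both of these score minima. Phase 1 RUNX1 was at 1 of the 11, Phase 1 Med12 at 0 and Phase 1 p300 at 1, and 0 held an RBPJ string. Shares without them were not computed at these minima. Excluding sites only by LP Notch1-IC peaks of at least 30 gave LP RUNX1 57.4%, LP Med12 53.5% and LP p300 60.4%. The 47 sites in both Phase lists had RUNX1 at 57.4 and 87.2%, Med12 at 53.2 and 93.6%, Phase 1 p300 at 91.5%, CTCF at 14.9 and 21.3%, RUNX1 in Phase 1 and not in LP at 31.9%, Med12 kept with sgCbfb at 45% and the RBPJ string at 46.8%. Leaving out promoters gave 29.3% kept with sgCbfb, and starting from sgCbfb peaks 98.6% were found with sgCont. With centres within 100 bp, RUNX1 was at 41.2 and 63.9%, Med12 at 36.8 and 70.6%, p300 at 44.3 and 72.0% and CTCF at 5.41 and 9.12%. Within 500 bp, LP RUNX1 was at 56.8%, Med12 at 52.4 and 84.8%, p300 at 60.8 and 87.8% and CTCF at 15.5 and 22%. With factor peaks of at least 30, Phase 1 RUNX1 was at 70.6%, LP Med12 at 40.5% and Phase 1 CTCF at 10.8%. A 100-bp window gave the RBPJ string at 25.7%, and TGGGAA was at 56.8%. RUNX1, Med12 and p300 were at more ligand-induced sites in Phase 1 than in LP under every setting for which these shares were computed, which leaves out the string and guide settings and lists of equal length. The cause of these shifts was not tested. The lists hold no read depth, so a missing peak may lie just under the score limit.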
